A study of Mus musculus with 7 samples.

Results

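Insulin-like growth factor (IGF) binding proteins and the receptors and substrates of insulin and IGF signalling were followed as 10 genes in 7 mouse esophageal epithelial cell lines. The genes were taken by symbol from the table of gene counts: Igfbp2, Igfbp3, Igfbp4, Igfbp5, Igfbp6, Igfbp7, Igf1r, Insr, Irs1 and Irs2. All 10 were among the 24047 names of the table and all 10 passed the expression filter, with 13768 genes tested.

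Each line gave 1 library of polyadenylated RNA, and all 7 lines had a mixed strain background and were grown on plastic in the keratinocyte medium KSFM. WT 1 and WT 2 were wild type with no treatment label. Mutant 1, 2 and 3 carried p53R172H, a missense allele of the tumour suppressor p53, and null 1 and null 3 were p53 -/-, and these 5 lines all had the treatment label 4NQO, a carcinogen used to induce squamous tumours of the mouth and esophagus. The labels do not say whether lines came from separate animals, and p-values describe only how these lines vary. They name no vehicle or untreated mutant or null line, so genotype and 4NQO cannot be told apart in comparisons with WT.

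Total counts ran from 12751118 (WT 2) to 47000225 (mutant 1), and 1 count corresponded to 0.0203 to 0.0812 CPM (counts scaled to library size with TMM factors, the unit of every level here). Trp53 stood at 4.71 and 8.73 CPM in the null lines and at 172 to 254 CPM in the other lines. WT 1 and 2 (212 and 193 CPM) lay within the range of the mutant lines, so this level bears on the null label only. Xist, which coats the inactive X, also separated WT (675 and 1653 CPM) from the other lines (at or below 0.964 CPM), so this difference too cannot be told apart from genotype. Ddx3y, a gene of the Y chromosome, was at 0.987 and 0.0812 CPM in WT 1 and 2. It was at 77.0, 70.5 and 67.4 CPM in mutant 1, 2 and 3 and 96.4 CPM in null 3, but 0.0304 CPM in null 1. Null 1 thus had little of either transcript (Xist 0.304 CPM) and differed from null 3 in Ddx3y. Of 15 esophageal keratinocyte markers, 15 had counts in all libraries but mutant 2, which had 14, and their sum was 36288 and 50130 CPM in WT and 10660 to 16621 CPM in the other lines. Immune markers summed to 23.5 to 92.0 CPM, nearly all of it Cd68 (22.5 to 91.8 CPM), a lysosomal gene of macrophages that other cells also express, while Ptprc and Cd3e had at most 2 counts in any library. Of the 7 endothelial markers, 4 to 6 had counts, with sums of 0.544 to 2.16 CPM, and the defining marker Cdh5 had at most 1 count. The null lines were unlike each other, with a correlation of 0.895 across genes, against 0.979 for the WT lines and 0.919, 0.939 and 0.953 for pairs of mutant lines.

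IGF1 and IGF2 act through the receptor tyrosine kinase encoded by Igf1r, and insulin through the related Insr. Both receptors phosphorylate the docking proteins IRS1 and IRS2, which recruit phosphatidylinositol 3-kinase (PI3K) and thereby activate AKT and mTOR. Outside the cell, IGF-binding proteins hold the ligands, lengthen their life and in most settings limit their access to the receptor. In stratified epithelium this pathway supports growth of basal cells, and IGFBP3 has long been listed among genes that p53 can activate.

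Igfbp3 and Igfbp4 gave the clearest differences among the 10, in opposite directions, and the 250 bases before the RefSeq start of each are shown for that reason (GRCm38.p6, 5′ to 3′ on the gene's strand). Capitals mark matches to motifs searched on both strands, and no matches overlapped in these windows. The motif TATAAA is the core of the box that positions transcription starts. The motif CACCTG is bound by repressors such as ZEB1 and SNAI2. The other motifs were GGGCGG, bound by SP1, and the AP-1 site TGANTCA.
Igfbp3, chr11:7213924-7214173, minus strand: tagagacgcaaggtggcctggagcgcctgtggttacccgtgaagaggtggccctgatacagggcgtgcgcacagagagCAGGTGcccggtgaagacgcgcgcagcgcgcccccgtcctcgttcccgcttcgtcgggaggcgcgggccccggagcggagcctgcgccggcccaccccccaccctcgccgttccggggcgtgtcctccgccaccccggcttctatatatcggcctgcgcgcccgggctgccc
Igfbp4, chr11:99040994-99041243, plus strand: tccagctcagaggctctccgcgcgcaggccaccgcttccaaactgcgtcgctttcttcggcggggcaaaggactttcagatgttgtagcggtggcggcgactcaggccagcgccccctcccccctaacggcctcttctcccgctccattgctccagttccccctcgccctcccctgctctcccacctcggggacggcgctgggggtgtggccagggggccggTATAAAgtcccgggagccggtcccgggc
The Igfbp4 window held TATAAA beginning 28 bases before the start, a motif found in 12.4% of 32851 windows of this length, and the Igfbp3 window held CACCTG, read on the opposite strand, beginning 172 bases before the start (17.2% of windows). Only exact TATAAA was searched, so variants such as the tatatat near the end of the Igfbp3 window were not marked. Neither held GGGCGG or TGANTCA, which occurred in 32.7% and 6.75% of windows. CpG pairs numbered 32 in the Igfbp3 window and 22 in the Igfbp4 window, against a median of 6. Promoter windows were given for 9 of the 10 genes. In the RefSeq gene order Igfbp2 and Igfbp5 are next to each other, as are Igfbp1 and Igfbp3.

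Per kilobase of exon, Igfbp7 was the most abundant of the 10 transcripts in WT lines, at 380 ± 65.6 CPM per kilobase (SD, n = 2), followed by Igfbp3 at 92.1 ± 14.9. The docking protein gene Irs2 came next at 12.5 ± 5.19, then Igf1r at 7.73 ± 1.19 and Insr at 4.91 ± 1.11, and the values of these neighbours did not overlap between libraries. Igfbp2 (1.48 ± 0.511) and Irs1 (1.32 ± 0.345) overlapped each other. Igfbp4 (0.280 ± 0.124) and Igfbp6 (0.0518 ± 0.0300) were lower still, and Igfbp5 had no count in WT. In mutant lines (n = 3) the order was led by Igfbp7 (157 ± 72.1), Igfbp4 (52.1 ± 51.8), Igfbp3 (24.8 ± 9.04) and Igfbp2 (22.5 ± 3.87), each overlapping the next between libraries, so that Igfbp4 stood at rank 8 of 10 in WT and rank 2 in mutant lines by mean. In null lines (n = 2) the order again began with Igfbp7 (275 ± 266), Igfbp3 (35.4 ± 9.86) and Irs2 (21.2 ± 6.64). Exon lengths were those of GENCODE M21 on GRCm38, which may differ from the annotation used for counting.

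**Figure D1:**
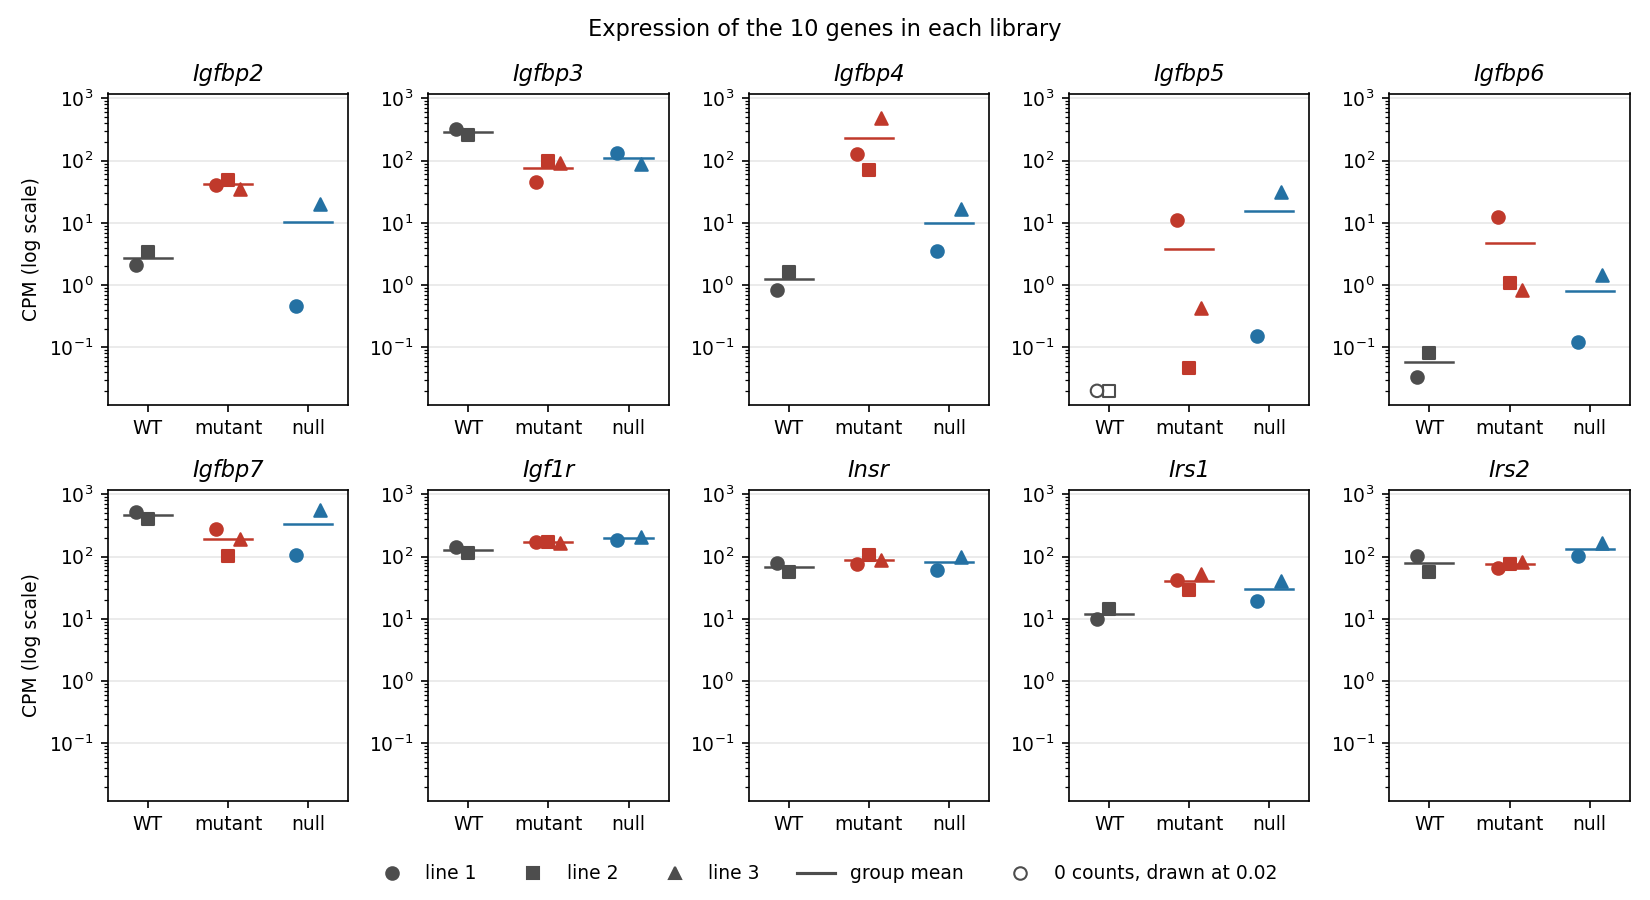
CPM of each of the 10 genes on a log axis, with 1 point per library, grouped as WT (grey), mutant (red) and null (blue); the symbol gives the line number, the bar the group mean, and open symbols mark libraries with 0 counts, drawn at 0.02. Igfbp4 is high in all 3 mutant lines and Igfbp5 in mutant 1 and null 3, while Igf1r spans only 116 to 209 CPM over all 7.

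Igfbp3, the main carrier of IGFs in blood and a secreted product of many epithelia, was lower in mutant than in WT lines. Its level was 321 and 255 CPM in WT 1 and 2. In mutant 1, 2 and 3 it was 45.2, 97.3 and 90.4 CPM, and in null 1 and null 3 it was 133 and 89.0 CPM. Every mutant and null library thus lay below both WT libraries, with mutant 1 the lowest of all. The mutant mean was 77.6 ± 28.3 CPM (SD, n = 3) against 288 ± 46.7 CPM (n = 2), 3.71-fold lower. The edgeR quasi-likelihood fit gave -1.89 on the log2 scale (SE 0.352, adjusted p = 0.0347). Null against WT gave -1.38 (SE 0.396, adjusted p = 0.153), which did not pass in edgeR but did in DESeq2 (0.00986), and mutant against null gave -0.51 with a 95% interval of -1.35 to 0.33. The mutant call was lost without WT 1, WT 2, mutant 2 or mutant 3 (adjusted p = 0.151, 0.194, 0.0716 and 0.0929) at log2 fold changes of -1.64 to -2.11 over all libraries left out, and with a replicate block (adjusted p = 0.157). The summed keratinocyte markers were lower in the same 5 libraries as Igfbp3, and their part in this result was not tested. Krt5 and Krt14 made up most of that sum (13826 and 11359 CPM in WT 1). Of the 15 markers, 13 had a log2 fold change below 0 and 2 above 0 in mutant against WT. Mean Itga6 (877 CPM in WT, 1407 CPM in mutant) and Sox2 (52.5 and 87.5 CPM) were higher, and Trp63 was level (346 and 345 CPM). In bulk RNA, fewer cells of a type and less RNA per cell cannot be told apart.

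Igfbp4, a secreted inhibitor of IGF action that the protease PAPP-A cleaves, rose in mutant lines. It was at 0.850 and 1.62 CPM in WT 1 and 2, from 25 and 20 counts. In mutant 1, 2 and 3 it was 129, 69.6 and 492 CPM, and in null 1 and null 3 it was 3.50 and 16.5 CPM. The 3 groups did not overlap, with null lines between WT and mutant lines. The ratio of mutant to WT means was 186, and the log2 fold change was 7.62 (SE 1.38, adjusted p = 0.0329). Null against WT gave 3.09 (SE 1.21, adjusted p = 0.228) and mutant against null 4.53 (SE 1.14, 95% interval 1.81 to 7.25, adjusted p = 0.274), neither of which passed in edgeR, although DESeq2 called the latter (adjusted p = 0.00434). The mutant call against WT was lost without WT 1, WT 2, mutant 2 or mutant 3 (adjusted p = 0.165, 0.224, 0.0637 and 0.0746), in limma-voom (0.143) and with a replicate block (0.0988), and the log2 fold change stayed between 6.37 and 8.08.

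Igfbp2, a binding protein with some preference for IGF2, stood higher in mutant lines and in 1 null line without passing the test. WT 1 and 2 had 2.08 and 3.41 CPM. Mutant 1, 2 and 3 had 40.1, 49.2 and 35.1 CPM, a narrow range far above WT. The null lines parted, with 0.456 CPM in null 1, the lowest of all libraries, and 20.3 CPM in null 3. Mutant against WT gave 3.94 on the log2 scale (SE 1.36, adjusted p = 0.113). It was called by DESeq2 (adjusted p = 0.00108) and in a fit of only those 5 libraries (0.00773). Mutant against null gave 2.00 (adjusted p = 0.482), and 6.50 without null 3 (adjusted p = 0.0399). Null against WT turned from 1.93 to -2.55 without null 3, so its sign rested on that library.

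Igfbp5, which binds IGFs and extracellular matrix and is typical of mesenchymal cells, had nearly all of its counts in 1 line of each altered genotype, and no comparison passed. It had 0 counts in WT 1 and WT 2. Mutant 1 had 11.04 CPM, mutant 2 and mutant 3 had 0.0475 and 0.436 CPM, null 1 had 0.152 CPM and null 3 had 31.3 CPM. Mutant 1 supplied 543 of the 564 mutant counts and null 3 supplied 824 of the 829 null counts. Against a floor of 3 counts over the WT group, Igfbp5 was at least 58.1-fold higher in mutant and at least 195-fold higher in null lines, and both bounds rest on those single libraries. Neither comparison passed (adjusted p = 0.232 and 0.261). The summed fibroblast markers described further on were highest in these same libraries.

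Igfbp6, the family member that prefers IGF2 over IGF1, was also highest in mutant 1 and null 3, at low levels and with null 3 close to mutant 2. WT 1 and WT 2 had 1 count each. Mutant 1, 2 and 3 had 12.3, 1.07 and 0.826 CPM, and null 1 and null 3 had 0.122 and 1.48 CPM. The 5 altered lines were all above WT, and mutant 1 stood apart from mutant 2 and 3. From 685 against 2 counts the ratio of mutant to WT was 106 (95% counting interval 29.2 to 876), and from 43 against 2 that of null to WT was 15.1 (3.95 to 129), where the intervals cover counting error only. Mutant 1 held 604 of the 685 mutant counts and null 3 held 39 of the 43 null counts. The fitted log2 fold change went from 6.42 to 4.09 without mutant 1, and that of null against WT from 3.85 to 1.195 without null 3. Adjusted p-values were 0.0997 and 0.321, and DESeq2 called the mutant difference (0.00191).

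Igfbp7, a secreted relative that binds IGFs weakly and lacks the carboxy-terminal domain of the other members, was strongly expressed everywhere. It was at 516 and 403 CPM in WT 1 and 2, 275, 101 and 193 CPM in mutant 1, 2 and 3, and 105 and 559 CPM in null 1 and null 3. All mutant libraries were below WT, whereas null 3 was the highest of all 7 and null 1 near the lowest. Mutant against WT gave a log2 fold change of -1.28 (SE 0.681, 95% interval -2.90 to 0.35, adjusted p = 0.249). Null against WT gave -0.47, and 0.28 without null 1. An exon of Igfbp7 overlaps Polr2b on the other strand in GENCODE M21, and Polr2b itself stayed within 120 to 146 CPM.

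The receptors varied little. Igf1r was at 144 and 116 CPM in WT, 171, 173 and 165 CPM in mutant 1, 2 and 3, and 187 and 209 CPM in null 1 and null 3. The 3 groups did not overlap, in the order WT, mutant, null. Differences were small, with a log2 fold change of 0.39 for mutant against WT (SE 0.152, 95% interval 0.02 to 0.75, adjusted p = 0.147) and 0.61 for null against WT (SE 0.166, 95% interval 0.21 to 1.01, adjusted p = 0.141, DESeq2 adjusted p = 0.0190). Insr was at 78.2 and 56.7 CPM in WT, 76.1, 106 and 86.9 CPM in mutant, and 62.1 and 99.6 CPM in null lines, and all groups overlapped. Its log2 fold changes were 0.41 (95% interval -0.24 to 1.06), 0.26 (-0.44 to 0.96) and 0.15 (-0.49 to 0.79) for mutant against WT, null against WT and mutant against null.

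Of the docking proteins, Irs1 was higher in altered lines, just short of the threshold, and Irs2 was highest in null lines. Irs1 was at 9.83 and 14.3 CPM in WT 1 and 2, 41.8, 28.9 and 53.2 CPM in mutant 1, 2 and 3, and 19.6 and 40.1 CPM in null 1 and null 3. Every altered line exceeded both WT lines, by a log2 fold change of 1.78 in mutant (SE 0.423, adjusted p = 0.0536) and 1.31 in null (SE 0.442, adjusted p = 0.188; DESeq2 0.0460). Irs1 in mutant against WT was called in 5 of 15 alternatives, with adjusted p from 0.000587 to 0.241. Irs2 was at 102 and 56.0 CPM in WT, 65.7, 76.5 and 82.6 CPM in mutant, and 104 and 164 CPM in null lines. Both null libraries were above every other one, but null 1 (104.2 CPM) was nearly level with WT 1 (102.4 CPM). The log2 fold change of mutant against null was -0.84 (SE 0.302, unadjusted p = 0.0289, adjusted p = 0.317). Null against WT gave 0.75 (adjusted p = 0.269), and 0.39 without null 3. Against WT, mutant lines gave -0.08 for Irs2 (95% interval -0.81 to 0.65), a sign that turned without WT 1 (0.43).

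In mutant against WT, 2 of the 10 genes were called, 1 higher and 1 lower, where 7.42% of all genes tested were called (3.3% higher and 4.13% lower). At an unadjusted p under 0.05 there were 6 of 10, against 30.5% of all genes. DESeq2 called 5 of the 9 for which it gave an adjusted p (all but Igfbp5), where it called 24.4% of all genes, and limma-voom called 1 of 10 (background 5.4%). The groups did not overlap for 8 of the 10, 6 higher and 2 lower, where 52.6% of all genes did not overlap (26.9% higher and 25.7% lower). The median log2 fold change was 1.10 for the 10 and 0.08 for all genes tested. In null against WT edgeR called 0 of the 10 (background 0.138%, 0.0726% higher and 0.0654% lower), with 4 at an unadjusted p under 0.05 (background 20.2%), and DESeq2 called 3 of 9 (background 12.5%) and limma-voom 0 (background 0%). Non-overlap held for 7 of 10, 6 higher and 1 lower (background 56.1%, 29.1% higher and 27.1% lower), with a median of 1.03 against 0.06 for all genes. In mutant against null edgeR again called 0 of the 10, as it did over all genes (background 0%), with 2 at an unadjusted p under 0.05 (background 14%), 1 of 9 called by DESeq2 (background 4.86%) and 0 by limma-voom (background 0%). There the median was -0.04, and 4 of 10 did not overlap, 2 higher and 2 lower (background 31.1%, 16% higher and 15.1% lower). Each pair of comparisons shares a group of lines, so the counts are not independent. Igfbp5 and Igfbp6, with 0 and 2 counts over the WT lines, passed the expression filter only through altered lines. Against WT they could thus hardly come out other than higher, and they are included in these counts and medians. The 10 were also chosen with earlier results of these data known, so the counts are a description only.

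**Figure D2:**
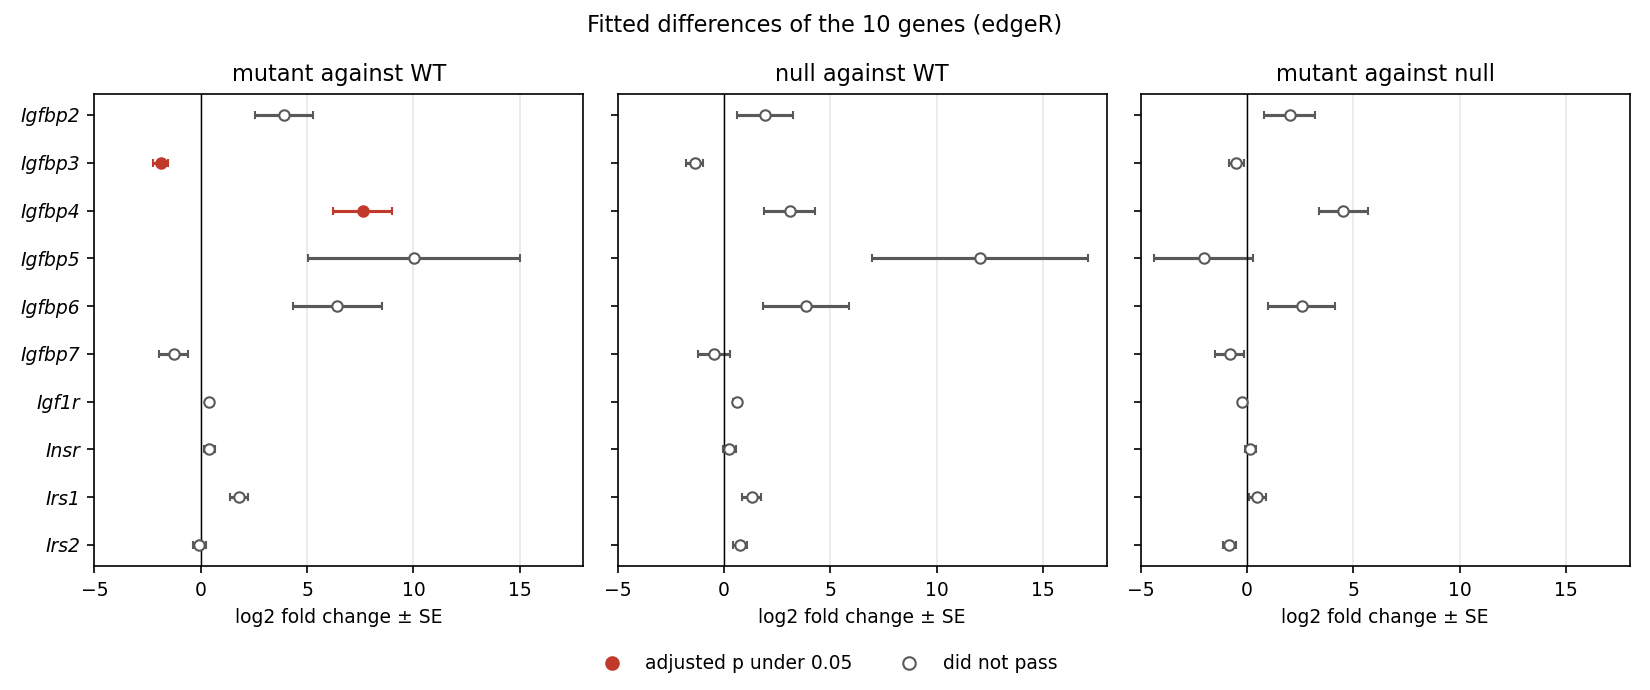
Log2 fold change ± SE of the 10 genes from the edgeR fit in each comparison; filled red points passed an adjusted p of 0.05 and open points did not. Igfbp4 (7.62) and Igfbp3 (-1.89) pass in mutant against WT, and the wide Igfbp5 values against WT come from 0 WT counts and depend on the prior count.

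Ligand genes were low or silent in most lines. Ins1 and Ins2 had 0 counts throughout, and so did the binding protein gene Igfbp1. Igf1 had 0 counts in WT 1, WT 2 and mutant 2, 0.229 CPM in mutant 3, 0.0304 CPM in null 1, and 4.05 and 2.24 CPM in mutant 1 and null 3. Igf2, a fetal growth factor expressed from the paternal allele, was at 2.11 and 2.76 CPM in WT, 17.9, 1.45 and 3.05 CPM in mutant 1, 2 and 3, and 2.74 and 195 CPM in null 1 and null 3. Its high values therefore fell in the same libraries as those of Igfbp5. The log2 fold change of Igf2 in null against WT was 5.35 (SE 2.06, adjusted p = 0.223; DESeq2 0.0367), and 0.18 without null 3. H19, the noncoding neighbour of Igf2 in the same imprinted cluster, was looked at after these values were seen and was at 130 CPM in mutant 1, 752 CPM in null 3 and at most 3.65 CPM elsewhere. The antisense gene Igf2os stayed at or below 1.78 CPM.

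Igf2r, the clearance receptor that carries IGF2 to lysosomes, was at 201 and 124 CPM in WT, 214, 212 and 312 CPM in mutant 1, 2 and 3, and 335 CPM in null 3, but at 20.6 CPM in null 1. Null 1 was thus far below every other library. Null against WT gave 0.13 on the log2 scale (SE 1.01, adjusted p = 0.952), which became -2.98 without null 3 and 1.04 without null 1. Airn, the noncoding RNA that starts within Igf2r on the other strand, was at 0.487 to 1.03 CPM.

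Proteases and their inhibitors set how much ligand IGF-binding proteins release. Pappa, which encodes the protease for IGFBP4, was named after its values were seen: it was at 2.76 and 4.55 CPM in WT, 15.3, 0.736 and 60.6 CPM in mutant 1, 2 and 3, and 1.73 and 33.5 CPM in null 1 and null 3. Mutant 3 had the highest level of both Pappa and Igfbp4. Stc2, whose product inhibits PAPP-A, was at 5.17 and 5.60 CPM in WT, 39.6, 27.5 and 17.0 CPM in mutant, and 19.5 and 68.5 CPM in null lines, above WT in all 5. In edgeR it passed neither comparison (mutant against WT 2.38, SE 0.620, adjusted p = 0.0631; null against WT 3.03, SE 0.665, adjusted p = 0.112). DESeq2 called both (0.00053 and 8.66e-05), and mutant against WT also passed with no filter (0.0479) and in a fit of only the groups compared (0.0271). Null against WT for Stc2 fell to 1.86 without null 3 (adjusted p = 0.181). Htra1, a serine protease that can cleave IGF-binding proteins and was also picked after its values were seen, was abundant in every line at 1328 to 2579 CPM.

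Among adaptors, Grb10, an imprinted gene whose product binds the insulin and IGF1 receptors and dampens their signal, rose in mutant lines. It was at 1.497 and 2.03 CPM in WT 1 and 2, 282, 379 and 261 CPM in mutant 1, 2 and 3, and 6.57 and 175 CPM in null 1 and null 3. All altered lines were above WT, with null 1 close to it. The log2 fold change was 7.47 in mutant against WT (SE 1.51, adjusted p = 0.0390) and 5.71 in null against WT (SE 1.43, adjusted p = 0.129). The call was lost without WT 1, WT 2, mutant 2 or mutant 3 (adjusted p = 0.187, 0.252, 0.0854 and 0.0987), in limma-voom (0.175) and with a replicate block (0.133). Both null lines moved the other comparisons. Null against WT, which DESeq2 called with all libraries in (adjusted p = 0.000676), gave 6.66 without null 1 (edgeR adjusted p = 0.00847) and 1.93 without null 3 (0.124). Without null 3, mutant against null gave 5.55 (adjusted p = 0.0340) in place of 1.76 (adjusted p = 0.490). Socs2, an inhibitor of growth hormone signalling, was lower in mutant lines (37.2, 23.7 and 27.2 CPM) than in WT (46.4 and 48.3 CPM) and null lines (56.1 and 72.5 CPM), with log2 fold changes of -0.69 (adjusted p = 0.110) and -1.13 (adjusted p = 0.258).

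Downstream, Pik3r1, the p85α regulatory subunit that docks PI3K on IRS proteins, rose in mutant lines. It was at 33.3 and 34.4 CPM in WT, 83.3, 225 and 217 CPM in mutant 1, 2 and 3, and 31.3 and 67.4 CPM in null 1 and null 3. The log2 fold change of mutant against WT was 2.37 (SE 0.532, adjusted p = 0.0474), and that of mutant against null was 1.83 (SE 0.516, adjusted p = 0.287; DESeq2 0.0077). The call was lost without WT 1, WT 2, mutant 2 or mutant 3 (adjusted p = 0.202, 0.271, 0.103 and 0.123), in limma-voom (0.0734), in a robust fit (0.0503) and with a replicate block (0.125). The catalytic subunit gene Pik3cb was higher in null lines (92.4 and 98.5 CPM) than in mutant (66.1, 41.0 and 40.9 CPM) and WT lines (59.5 and 42.9 CPM), with adjusted p = 0.287 and 0.184. The transcription factor Foxo1, which AKT holds out of the nucleus, ranged from 47.3 to 117 CPM.

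Igf2bp1, a fetal RNA-binding protein that binds IGF2 mRNA, rose in mutant lines. It was at 1.67 and 2.84 CPM in WT, 25.1, 35.7 and 25.6 CPM in mutant 1, 2 and 3, and 14.7 and 10.3 CPM in null 1 and null 3, so the 3 groups were apart. The log2 fold change was 3.69 in mutant against WT (SE 0.397, adjusted p = 0.0192) and 2.49 in null against WT (SE 0.392, adjusted p = 0.0768; DESeq2 4.71e-07). The mutant call was lost without WT 1, WT 2, mutant 2 or mutant 3 (adjusted p = 0.117, 0.137, 0.0548 and 0.0725) and with a replicate block (0.103). Its relatives were looked at afterwards: Igf2bp2 ranged from 101 to 195 CPM, and Igf2bp3 was at 0.136 and 0.244 CPM in WT, 32.7, 0.308 and 3.33 CPM in mutant 1, 2 and 3, and 6.42 and 27.6 CPM in null 1 and null 3.

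Over the 68 other genes listed for the pathway, 60 were tested. In mutant against WT 3 were called, all higher (Grb10, Pik3r1 and Igf2bp1), which is 5% against 7.42% of all genes. At an unadjusted p under 0.05 there were 19 of 60 (background 30.5%), DESeq2 called 14 of 59 (24.4%) and limma-voom 1 of 60 (5.4%), and the median log2 fold change of the 60 was 0.27. In null against WT edgeR called 0 of 60, with 14 at an unadjusted p under 0.05 (background 20.2%), 8 of 59 called by DESeq2 (12.5%) and 0 by limma-voom (0%), and the median was 0.32. In mutant against null it called 0, with 5 at an unadjusted p under 0.05 (background 14%), 4 of 59 by DESeq2 (4.86%) and 0 by limma-voom (0%), and a median of -0.02. The 17 PI3K and AKT genes and the 12 genes of the mTOR branch had medians of 0.19 and 0.23 in mutant against WT, with 1 and 0 called. Igf1, Stc1, Igfals and Igf2bp3, with 0, 0, 3 and 7 counts over the WT lines, passed the expression filter only through altered lines. Against WT these genes could hardly come out other than higher, and they are included in the counts and medians of the 60.

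**Figure D3:**
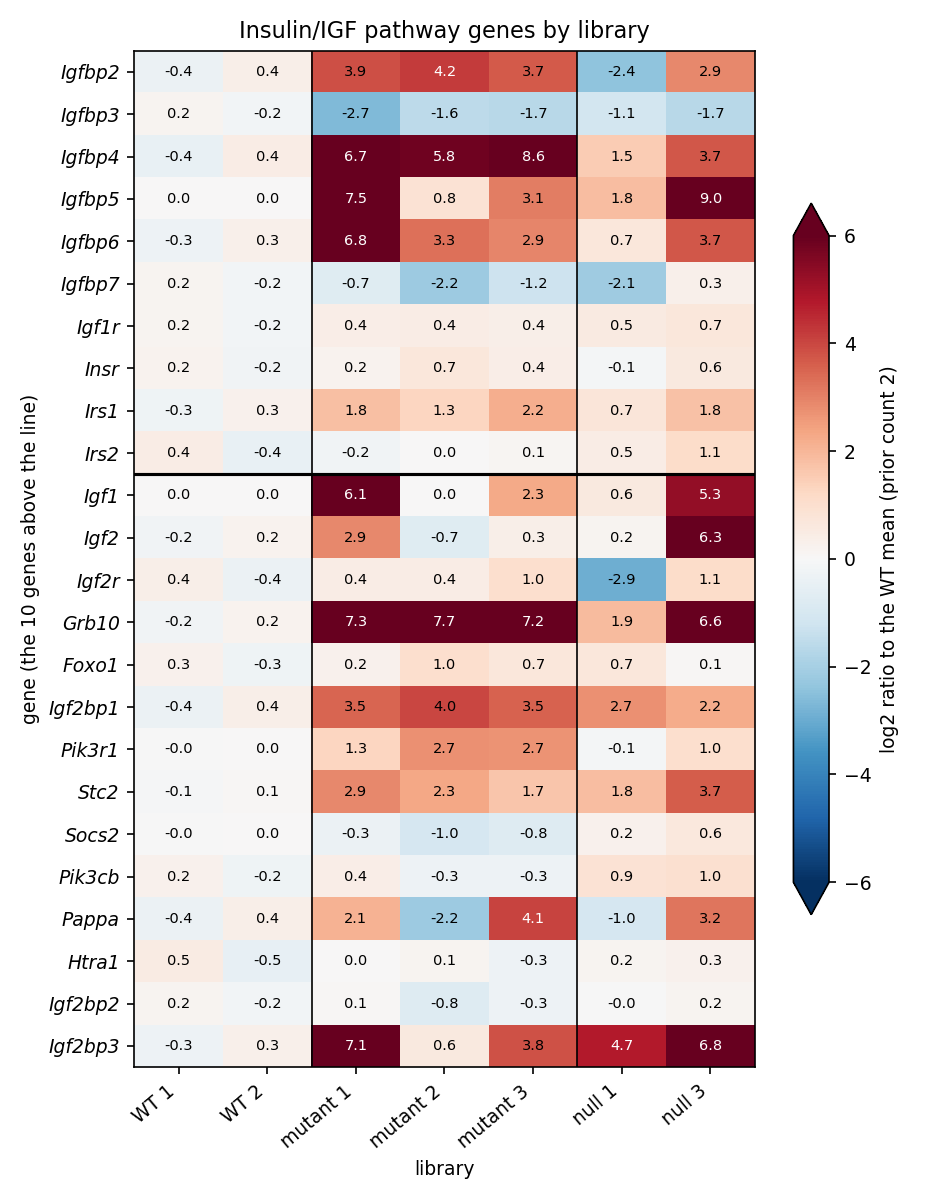
Log2 ratio of each library to the WT mean (log2 CPM with a prior count of 2) for the 10 genes, above the line, and other pathway genes, below it; columns are libraries, and red is higher and blue lower than WT, saturating at 6. Grb10 is raised in all 3 mutant lines and null 3, and Igfbp5, Igf1 and Igf2 are most raised in mutant 1 and null 3.

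Genes listed as markers of other cell types moved with several of these genes. The sum of 13 fibroblast markers was 12.1 and 18.999 CPM in WT 1 and 2, 1088, 112 and 473 CPM in mutant 1, 2 and 3, and 19.2 and 676 CPM in null 1 and null 3. Mutant 1 and null 3, which had the highest sums, also had the highest Igfbp5, Igfbp6, Igf1 and Igf2. Null 1, whose sum was like WT, had the lowest Igfbp2 of any line and the lowest Igfbp4, Igfbp6 and Grb10 of the 5 altered lines. Mutant 2, with a sum of 112 CPM, had the highest Igfbp2 and Grb10 of all 7 and the lowest Igfbp4 of the mutant lines. Its sum was mostly Col5a1 (85.5 CPM) and Twist2 (15.6 CPM), while Col1a2 had 0 counts and Col3a1 was at 0.214 CPM. Vim and Zeb1 were on none of the marker lists. Vim was at 0.646 and 3.41 CPM in WT, 343, 577 and 825 CPM in mutant, and 2.71 and 225 CPM in null lines. Zeb1 was at 0.0340 and 0.162 CPM in WT, 28.9, 53.6 and 53.7 CPM in mutant, and 0.274 and 6.23 CPM in null lines. Both were thus far above WT in mutant 2. Of the markers, Lum had 0 counts in all libraries but mutant 1, which had 1, whereas Col3a1 reached 148, 183 and 276 CPM in mutant 1, mutant 3 and null 3. Counts were found for 7 and 10 of the 13 in WT and for 10 to 13 in the other lines. The part of these markers, and of Vim and Zeb1, in the results was not tested. The 8 muscle markers summed to 154 and 283 CPM in WT, 834, 645 and 171 CPM in mutant 1, 2 and 3, and 29.7 and 451 CPM in null 1 and null 3. Most of each sum was Acta2, at 151 and 279 CPM in WT, 768, 625 and 157 CPM in mutant, and 28.3 and 350 CPM in null lines. Myh11 and Cnn1 stayed at or below 0.456 and 0.683 CPM. Tagln reached 42.9 CPM in mutant 1, and Myl9 and Des reached 35.3 and 26.0 CPM in null 3.

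**Figure D4:**
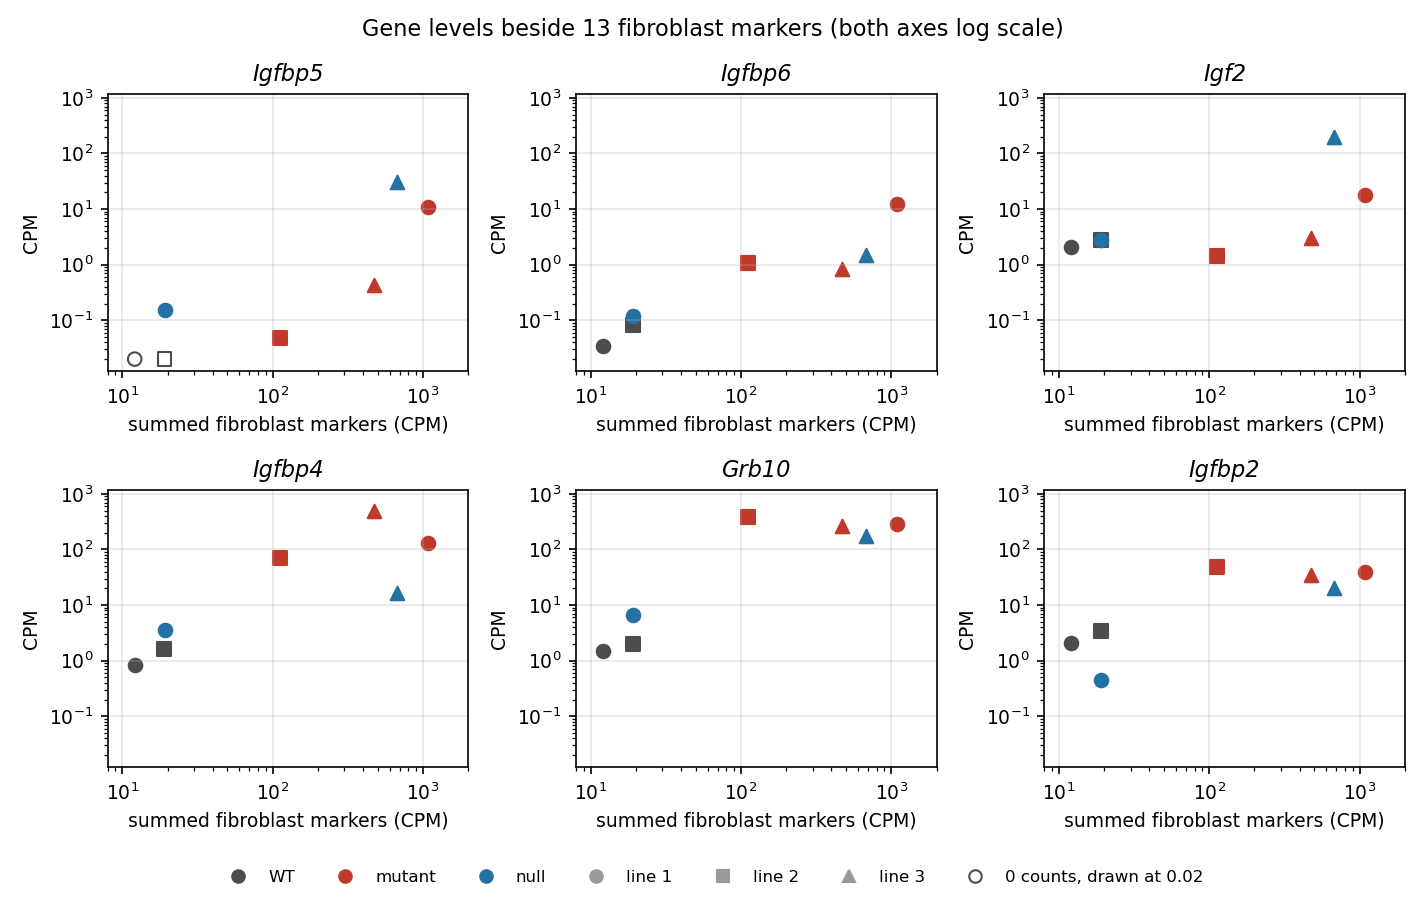
CPM of 6 genes (vertical, log scale) against the summed CPM of 13 fibroblast markers (horizontal, log scale), with 1 point per library; colour gives the group, the symbol the line number, and open symbols 0 counts drawn at 0.02. Igfbp5 and Igf2 are highest at the highest marker sums, in mutant 1 and null 3, while Grb10 and Igfbp2 are already high in mutant 2 at a sum of 112 CPM.

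Genes most like each of the 10 over the 7 libraries were read from Pearson correlations of log2 CPM, a description over few lines that differ in genotype and treatment together. Each was a top match among 10090 or 10091 genes, so a high r can come from the search alone. The size of change could differ widely between partners: Ncaph2 spanned 123 to 184 CPM and Igfbp2 0.456 to 49.2 CPM. Igfbp5 was closest to the hyaluronan synthase gene Has2 (r = 0.997), then the cytokine gene Il34 (0.992) and Map1a (0.992). Irs1 was closest to the matrix gene Thbs2 (0.995), then Tgfb3 (0.986) and Arhgap31 (0.984). Igfbp4 was closest to Slc36a4 (0.991), Pbx3 (0.987) and Hat1 (0.984), and Igfbp3 to Pik3c2b (0.987), Rhog (0.984) and Nat2 (0.983). For Igfbp2 the closest was Ncaph2 (0.991), for Igf1r Agpat1 (0.992), for Insr Gxylt1 (0.984), for Irs2 Wars (0.984), for Igfbp6 Aif1l (0.966) and for Igfbp7 Arid5a (0.958).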

How the data were processed

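The authors deposited a single table of raw counts, genes by libraries, whose columns were matched to samples by title. The tool STAR (2.5.1b) and the build mm9 are named, per the submitters' processing notes. The labels name a stranded mRNA kit. How reads were assigned to genes, with which annotation and strand setting, is not given in the sources used here. Values of genes with an overlapping antisense partner are uncertain for that reason. The 92 spike-in names, with 0 counts, were left out.

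Tests used edgeR 4.0.16 in R 4.3.3: TMM factors, the default expression filter, and the quasi-likelihood F test in its default (legacy) form on all 7 libraries with group as the only term. P-values were adjusted by Benjamini-Hochberg over all 13768 genes tested, with a threshold of 0.05. Each standard error is the absolute log2 fold change divided by the square root of F. The method was tested on simulated data. No library was a copy of another: between replicates, chi-square divided by its degrees of freedom was 55.9 to 233.6. The tests were repeated with DESeq2 1.42.0, with limma-voom (limma 3.58.1), with the newer quasi-likelihood form and a robust fit, with RLE or upper-quartile scaling, with 2 other filters, on the compared groups only, with a replicate block, and without each library in turn.

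The 10 genes and the pathway and marker lists were chosen with earlier results of these data known. Named besides the 10 were fixed pathway genes (Igf1, Igf2, Igf2r, Grb10 and Foxo1, with 1 more not reported here), pathway genes called in a comparison (up to 8) or else the 2 with the smallest p, the targeted gene Trp53, and the 3 genes most correlated with each of the 10 among those with a mean of at least 5 CPM. Promoter sequences are from RefSeq, GRCm38.p6. No coordinates of the count table were used.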

Additional observations from a re-analysis of the deposited data

How the results depend on the processing

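Calls changed more with the tool, a left-out library or a replicate block than with the scaling. Leaving out a library or adding a block also leaves fewer degrees of freedom. Its effect on the calls cannot be told apart here from dependence on particular lines. Over 909 refits of single genes under alternatives, 819 kept their direction and side of the threshold, 34 lost a call, 35 gained one and 21 changed sign. For mutant against WT, the 1022 genes called became 3272 in DESeq2 and 0 with a replicate block, and 0 to 1420 when a library was left out. The 2 called among the 10 became 5 in DESeq2, 1 in limma-voom, 4 in a fit of only the groups compared, 0 with the block and 0 to 2 without a library. The 3 other pathway genes became 14 in DESeq2, 1 in limma-voom, 5 in the newer quasi-likelihood form, with no filter and with a filter of 5 CPM in 2 libraries, 6 in a fit of only the groups compared, 0 with the block and 0 to 6 without a library. For null against WT, the 19 genes called became 1637 in DESeq2, 0 in limma-voom and with the block, 55 in the newer form, 77 with no filter and 0 to 55 without a library. Of the 10, DESeq2 called 3, and of the pathway genes 8, with 1 under no filter and 0 to 1 without a library. For mutant against null, the 0 genes called became 1 with RLE factors, upper-quartile factors, the newer form and the 5 CPM filter, 2 with no filter, 635 in DESeq2 and 0 to 22 without a library. Of the 10, DESeq2 called 1, and of the pathway genes 4, with 0 to 1 of each without a library. Among the 10, Irs1 in mutant against WT also passed in the newer form (adjusted p = 0.0476), with no filter (0.0391) and with the 5 CPM filter (0.0480). The cause of these changes was not tested.

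Signs of uncalled genes turned as follows. In limma-voom, log2 fold changes became -0.97 for Igf2r in null against WT and -0.21 for Igf1 in mutant against null, and with the replicate block Igf2r in null against WT became -1.73. Leaving out a library gave, in mutant against WT, -0.11 to 2.11 for Igf2, -0.45 to 0.43 for Irs2 and -0.34 to 0.21 for Pik3cb. In null against WT it gave -2.98 to 1.04 for Igf2r, -2.55 to 2.91 for Igfbp2, -2.13 to 0.28 for Igfbp7, -0.12 to 0.56 for Insr and -0.12 to 0.99 for Pik3r1. In mutant against null it gave -0.64 to 5.40 for Igf1, -5.47 to 1.45 for Igf2, -0.44 to 3.58 for Igf2r, -6.01 to 4.63 for Igfbp5, -1.55 to 0.86 for Igfbp7, -0.14 to 0.54 for Insr and -1.28 to 0.52 for Stc2. The line numbers pair nothing in the labels, and deviations of same-numbered lines correlated at -0.405 to 0.138, so the block tests only a shared number. A lone library left in a group was assumed to vary like the other groups. With 1 count at 0.0812 CPM in WT 2, levels of Igfbp5 and Igfbp6 in WT lie at the limit of depth. Igf1 and Igfbp6 gave no value under the 5 CPM filter, Igf1 none without mutant 1, and Igf1, Igfbp5 and Igfbp6 none in some fits of only the groups compared, because they did not pass those filters. DESeq2 gave Igfbp5 no adjusted p in any of the 3 comparisons, and these refits are not counted above.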
